A study of Mus musculus with 9 samples.

Results

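Of 9 libraries from cultured mouse T-ALL cells (T cell acute lymphoblastic leukemia), the 6 labelled MYC intermediate and MYC off (3 each) were compared, over all genes counted. They were chosen by these labels alone, and the comparison covers the removal of the MYC that remains at a low dose of doxycycline. The tumour cells carry a human MYC transgene that doxycycline shuts down. MYC intermediate cells received 20 pg/mL doxycycline and MYC off cells 500 pg/mL, both for 48 h, and the 3 MYC on libraries, mock treated for 48 h, serve only to set this step beside the one before it. Per the study's methods the cells derive from tumours of EμSRα-tTA/tet-O-MYC mice of the FVB/N background, in which a lymphoid enhancer and promoter drive the tetracycline transactivator and the transactivator drives MYC. Every library carries both transgenes. Whether the sequenced cells were 1 clone, or the replicates separate cultures, is not stated, so the p-values cover the spread of these libraries only, which may be technical. No library from cells without the transgene was analysed here, so an effect of doxycycline itself and the loss of MYC cannot be told apart.

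MYC is a transcription factor that pairs with MAX and binds the E-box CACGTG and related sequences near many promoters. It is best known for raising the output of the growth machinery: ribosome assembly, nucleotide and polyamine synthesis, and mitochondrial biogenesis. T-ALL cells of this model depend on MYC, and thymic T cells lower their own MYC as they leave the cycle and mature. A graded comparison asks which of these programs still depend on a reduced amount of MYC.

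The human transgene hMYC stood at 428, 414 and 383 CPM (counts of the gene scaled to the library total) in MYC intermediate replicates 1 to 3 and at 4.08, 4.01 and 3.26 CPM in MYC off, an order of replicates kept throughout. These values rest on 13786, 11186 and 10996 reads against 162, 108 and 103 reads. All MYC intermediate libraries were far above all MYC off libraries, in the order the labels give. The group means were 408 ± 23.01 and 3.78 ± 0.454 CPM (SD, n = 3 each), a 107.9-fold difference, and MYC intermediate held 32.4% of the MYC on mean. The log2 fold change, given throughout as MYC intermediate over MYC off with its standard error (SE), was 6.79 ± 0.099 (adjusted p = 6.9e-16, edgeR's quasi-likelihood test). With 3 libraries against 3, the two-sided exact permutation test of the log2 CPM values gave p = 0.1, the smallest it can give. The mouse gene Myc had 0 counts in all 9 libraries, and over their summed counts a level of up to 0.0118 CPM remains possible. How reads were divided between the human and the mouse gene is not given in the sources used here.

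Library totals ran from 26933496 to 39678799 counts in the 6 libraries compared, and replicates of a group differed by more than sampling noise. T cell genes were present in every library: Lck, the kinase of the T cell receptor, lay between 2552 and 2898 CPM in MYC intermediate and between 3498 and 3619 CPM in MYC off. The B cell genes Cd79b, Ms4a1 and Pax5, the macrophage genes Lyz2 and Adgre1, and the natural killer genes Ncr1 and Klrd1 had 0 counts in the 9 libraries. Other markers had a few: the B cell gene Cd79a 48 counts over the 9 libraries, the natural killer gene Klrb1c 30 and the myeloid gene Mpo 4. The myeloid genes Itgam and Csf1r were counted, at 12.7 to 14.6 and 19.5 to 21.3 CPM in MYC intermediate. All changes are shares of a library's counts, and in bulk RNA a change in the number of cells of a kind and a change in RNA per cell cannot be told apart.

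Removing the residual MYC moved growth and T cell genes in opposite directions. Of 14098 genes tested, 3476 (24.7%) passed an adjusted p under 0.01, of which 2073 (14.7%) were higher in MYC intermediate, that is, fell when MYC was turned off, and 1403 (9.95%) were lower in MYC intermediate, that is, rose. The falls were the larger: 400 genes (2.84%) fell and 103 (0.731%) rose by more than 2-fold, and 71 fell and 4 rose by more than 4-fold. In the first step, from MYC on to MYC intermediate, 427 genes (3.03%) fell and 476 (3.38%) rose by more than 2-fold. All MYC intermediate libraries were above all MYC off libraries in 2957 genes (21.0%) and below them in 3749 (26.6%). Members named from gene lists below were picked as called with large changes. Where their groups are said to be separate, this largely follows from that choice. Counts of called list members are to be set beside the 14.7% and 9.95% of all genes. The median log2 fold change of all genes in the second step was −0.007. The balance of directions depended on the scaling: 59.6% of called genes were higher in MYC intermediate with TMM scaling and 45.5% (1688 higher and 2026 lower) with upper-quartile scaling. Without MYC off replicate 2 the count of genes called lower was 852, and without MYC off replicate 3 it was 926.

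**Figure D1:**
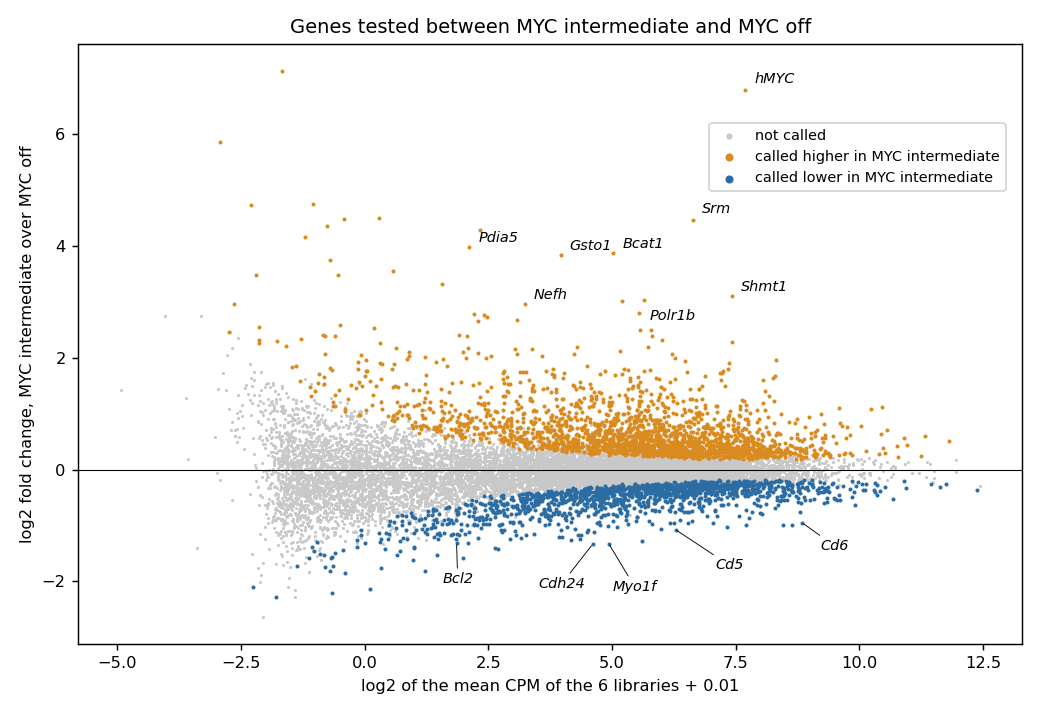
Each point is 1 of the 14098 genes tested, by its mean level in the 6 libraries (log2 of the mean CPM plus 0.01, horizontal) and its log2 fold change of MYC intermediate over MYC off (vertical), with called genes in colour. The 400 genes that fell by more than 2-fold when the residual MYC was removed reach higher absolute values than the 103 that rose, and hMYC is the highest of the well-expressed genes at a log2 fold change of 6.79.

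Among mouse genes with a mean of at least 10 CPM in MYC intermediate or MYC off, no overlap between these groups and no predicted names, the 12 largest falls were headed by metabolic enzymes. Srm makes spermidine, a polyamine. Its level was 179, 209 and 182 CPM in MYC intermediate and 8.39, 8.58 and 9.60 CPM in MYC off. No library of one group came near the other, and the log2 fold change was 4.46 ± 0.079 (adjusted p = 4.3e-15). Bcat1, the cytosolic enzyme that transaminates leucine, isoleucine and valine, stood at 55.7, 63.8 and 62.6 CPM and then at 3.91, 4.75 and 4.21 CPM. The log2 fold change of Bcat1 was 3.87 ± 0.086 (adjusted p = 8.9e-14). Gsto1, a glutathione transferase, fell from 28.8, 28.1 and 30.2 CPM to 2.32, 1.67 and 2.19 CPM, with a log2 fold change of 3.84 ± 0.11 (adjusted p = 1.4e-12). For both genes the groups were separate, and the spread within a group was small beside the gap.

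Shmt1, the cytosolic serine hydroxymethyltransferase that passes one-carbon units to folate, measured 298, 309 and 315 CPM in MYC intermediate and 37.9, 36.7 and 36.3 CPM in MYC off, and its log2 fold change was 3.10 ± 0.055 (adjusted p = 4.3e-15). It was the most abundant of these 12 genes, and its replicates lay close together in both groups. Pus7, which converts uridine to pseudouridine in RNA, fell with a log2 fold change of 3.03 ± 0.077 and Lap3, a leucine aminopeptidase, with 3.02 ± 0.099. Polr1b, the second largest subunit of RNA polymerase I, fell from 79.9, 84.8 and 79.5 CPM to 11.2, 11.8 and 13.3 CPM (log2 fold change 2.80 ± 0.070, adjusted p = 3.7e-13). The remaining genes of this group were Nefh (a neurofilament subunit, 2.95 ± 0.16), Car12 (a carbonic anhydrase, 2.67 ± 0.14), Ybx3 (a nucleic acid-binding cold shock protein, 2.50 ± 0.078), Gnl3 (nucleostemin, 2.50 ± 0.072) and Nat10 (the RNA cytidine acetyltransferase, 2.40 ± 0.078), with the log2 fold change in brackets. Their groups were separate because that was a condition of the choice.

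**Figure D2:**
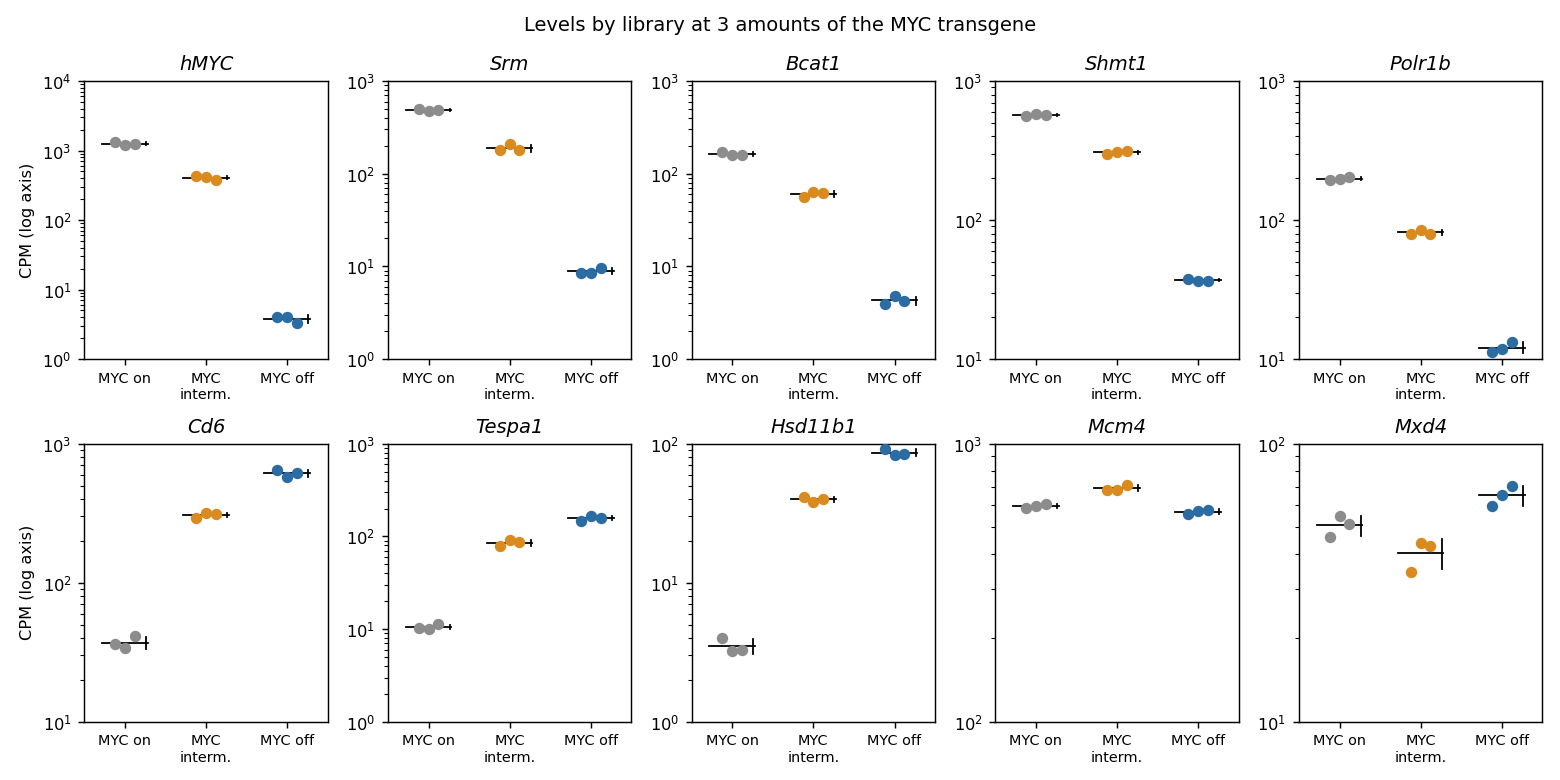
Levels of 10 genes in CPM on log axes, with 1 point per library, a horizontal bar at the mean of each group and a vertical bar of 1 SD to either side (n = 3). hMYC, Srm, Bcat1, Shmt1 and Polr1b fell further on the log scale from MYC intermediate to MYC off than from MYC on to MYC intermediate, Cd6, Tespa1 and Hsd11b1 had the larger rise on that scale before MYC intermediate, Mcm4 was highest and Mxd4 lowest in MYC intermediate.

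Genes of ribosome production fell broadly. Of 113 tested genes for ribosome assembly and nucleolar factors, 96 were higher in MYC intermediate and 1 lower, against 14.7% and 9.95% of all genes, and 48 of them exceeded 2-fold (2.84% of all genes). Their median log2 fold change was 0.81, and the called members with the largest changes were, at a mean of at least 5 CPM in 1 of the 2 groups (the limit for members named from any list), Gnl3, Nat10, Rrp12 and Mybbp1a. Rrp12, needed for the maturation and export of both ribosomal subunits, fell from 101, 111 and 107 CPM to 21.9, 20.2 and 23.8 CPM, with a log2 fold change of 2.32 ± 0.076. Mybbp1a, a nucleolar protein that binds MYB, fell from 265, 297 and 283 CPM to 61.7, 55.6 and 61.9 CPM (2.28 ± 0.065). The groups did not overlap in either gene.

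Of 36 tested subunits and factors of RNA polymerases I and III, which transcribe ribosomal and transfer RNA, 17 were higher and none lower, with a median of 0.26. Beside Polr1b fell Polr1a, the largest subunit of polymerase I (1.48 ± 0.080), the polymerase III subunit Polr3e (1.30 ± 0.081) and the polymerase I subunit Cd3eap (1.13 ± 0.080). Of 81 cytosolic ribosomal protein genes, 76 were higher and none lower, with a median of 0.86. They took 0.947%, 0.860% and 0.730% of counts in MYC intermediate replicates 1 to 3 and 0.538%, 0.480% and 0.454% in MYC off. The shares did not overlap, yet replicate 1 was the highest library of its group for 73 of the 81 genes in MYC intermediate and for 75 in MYC off, and the part of this in the result was not tested. Among the largest falls were Rpl12 (1.76 ± 0.13), Rpl38 (1.39 ± 0.27) and the paralog Rpl22l1 (1.30 ± 0.14). Ribosomal protein genes have many processed copies in the genome, so their counts are uncertain.

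Many genes that feed and run translation fell with them. Of 40 aminoacyl-tRNA synthetases and their scaffold proteins, 27 were higher in MYC intermediate and none lower, with a median log2 fold change of 0.40. Vars, which charges valine, fell from 267, 290.3 and 284 CPM to 113, 123 and 133 CPM (1.23 ± 0.063), and Iars, which charges isoleucine, from 153, 155 and 152 CPM to 86.6, 90.8 and 92.0 CPM (0.82 ± 0.050). In both genes the groups were separate. Of 50 initiation and elongation factors 37 were higher and none lower (median 0.44), among them Eif1a (1.50 ± 0.082), Eif4ebp1, the inhibitor of the cap-binding protein eIF4E (1.19 ± 0.10), Eif2b3 (1.16 ± 0.089) and the abundant factor Eif5a (1.12 ± 0.057), whose hypusine is made from spermidine.

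Nuclear genes for mitochondrial proteins fell too. Of 39 genes for protein import and matrix chaperones 30 were higher (median 0.49), among them C1qbp, a matrix protein needed for mitochondrial translation, at 141, 136 and 143 CPM and then 37.2, 39.8 and 35.5 CPM (1.95 ± 0.069). Hspd1, the matrix chaperonin, stood at 487, 435 and 446 CPM and then at 162, 149 and 141 CPM (1.64 ± 0.083). Both were separate between the groups. Of 80 mitochondrial ribosomal proteins 52 were higher (median 0.39) and 1 exceeded 2-fold, Mrps6 (1.25 ± 0.13). None of these lists had a member called lower.

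Of 77 nuclear genes of oxidative phosphorylation, 33 were higher and none lower, with a median of 0.37 in this step and 0.08 in the step before. The difference between the steps was called for 0 of the 77 genes, so an unequal change of the list was not shown. Cycs, the electron carrier cytochrome c, measured 88.3, 67.2 and 61.4 CPM in MYC intermediate and 46.0, 39.2 and 41.6 CPM in MYC off (0.82 ± 0.12, adjusted p = 5.4e-05). Atp5g1, a subunit of the ATP synthase ring, measured 108, 93.3 and 66.8 CPM and then 45.2, 38.2 and 36.9 CPM (1.20 ± 0.14). Replicate 1 was again the highest of its group, for 59 of these 77 genes in MYC intermediate and 71 in MYC off, and the part of this in the result was not tested. The count of 33 became 57 without MYC intermediate replicate 3, 20 without MYC off replicate 2, 19 without MYC off replicate 3, and 50 with a replicate block. Of 9 tested transcripts of the mitochondrial genome, mt-Nd1 (0.95 ± 0.12), mt-Nd2 (0.79 ± 0.15) and mt-Cytb (0.55 ± 0.077) were higher. MYC intermediate replicate 1 was the highest of its group for 8 of the 9, and the part of this in the result was not tested. In the 6 libraries mt-Co2, mt-Co3 and mt-Atp6 had only 4, 17 and 8 counts, and mt-Nd3, mt-Nd4l and mt-Atp8 had 0. Counts of transcripts of this genome are therefore uncertain.

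In nucleotide and one-carbon metabolism, most enzymes that build purines, pyrimidines and folate units fell. Of 43 genes of purine and pyrimidine synthesis 27 were higher in MYC intermediate and 1 lower (median 0.52). Cad, which starts pyrimidine synthesis, fell from 255, 274 and 216 CPM to 61.9, 77.2 and 83.1 CPM, a log2 fold change of 1.79 ± 0.12. The purine enzymes Atic (1.43 ± 0.067) and Gart (1.32 ± 0.052) and the salvage enzyme Aprt (1.46 ± 0.089) followed. Of 21 serine and folate enzymes 17 were higher and none lower (median 0.40): beside Shmt1 stood the folate carrier Slc19a1 (2.20 ± 0.072), the cytosolic folate enzyme Mthfd1 (1.91 ± 0.054) and the mitochondrial Shmt2 (1.61 ± 0.058). Mthfd1 stood at 244, 265 and 268 CPM in MYC intermediate and 70.1, 73.0 and 70.3 CPM in MYC off, with no overlap.

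Polyamine synthesis had 8 of 17 genes higher (47.1%, against 14.7% of all genes) and 1 lower (5.88%, against 9.95%). Odc1, the first enzyme of the pathway, fell from 101, 101 and 111 CPM to 47.8, 45.3 and 44.1 CPM (1.23 ± 0.066). Mtap, which recycles the by-product methylthioadenosine, had a log2 fold change of 1.48 ± 0.069 and Amd1, which supplies the aminopropyl donor, of 1.04 ± 0.072. These 3 falls were much smaller than that of Srm. Of 31 genes of amino acid transport and use 14 were higher and 1 lower, with Pycr1, the last step of proline synthesis (2.07 ± 0.11), the leucine carrier Slc7a5 (1.07 ± 0.054) and the asparagine synthetase Asns (0.98 ± 0.070) after Bcat1.

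Of 36 genes for glucose uptake, glycolysis and the pentose phosphate path, 9 (25%) were higher and 1 (2.78%) lower. The shares of all genes were 14.7% and 9.95%. The median log2 fold change of the list was 0.12 in this step and 0.42 in the first. The difference between the steps was called for 1 of the 36 genes, so an unequal change of the list was not shown. Tkt, the transketolase, fell from 708, 771 and 776 CPM to 517, 503 and 497 CPM (0.62 ± 0.054), the monocarboxylate carrier Slc16a1 had 0.57 ± 0.054 and the muscle enolase Eno3 1.14 ± 0.097. Of 36 genes for cholesterol and fatty acid synthesis 24 were higher and none lower (median 0.33), with Scd1, the stearoyl-CoA desaturase, at 1.32 ± 0.063 and Fasn, the fatty acid synthase, at 1.10 ± 0.11. Of 28 genes of iron uptake, storage and redox 10 (35.7%) were higher and 1 (3.57%) lower. The transferrin receptor Tfrc, which brings in iron, fell from 381, 328 and 328 CPM to 208, 217 and 206 CPM (0.76 ± 0.066). Its groups did not overlap.

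Of 37 cytosolic chaperones 26 were higher and 1 lower (median 0.47), among them the co-chaperones Bag2 (1.38 ± 0.099) and Fkbp4 (1.22 ± 0.055) and the chaperonin subunit Cct6a (1.07 ± 0.051). Of 44 proteasome genes 27 were higher and none lower, none of them by more than 2-fold (median 0.28, and 0.09 in the first step). The difference between the steps was called for 0 of the 44, so an unequal change of these was not shown. Psme3, the nuclear proteasome activator, fell from 360.3, 329 and 339 CPM to 233, 218 and 214 CPM (0.67 ± 0.062). In the endoplasmic reticulum, 10 of 39 genes for the unfolded protein response and ER chaperones were higher (25.6%, against 14.7% of all genes). Another 4 were lower (10.3%), a share like the 9.95% of all genes. Pdia5, a disulfide isomerase, fell from 7.42, 8.22 and 8.60 CPM to 0.302, 0.965 and 0.412 CPM (3.97 ± 0.24, adjusted p = 5.7e-09). The chaperone Hspa5 (BiP) fell from 578, 591 and 676 CPM to 427, 442 and 418 CPM (0.56 ± 0.068), and was separate between the groups.

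**Figure D3:**
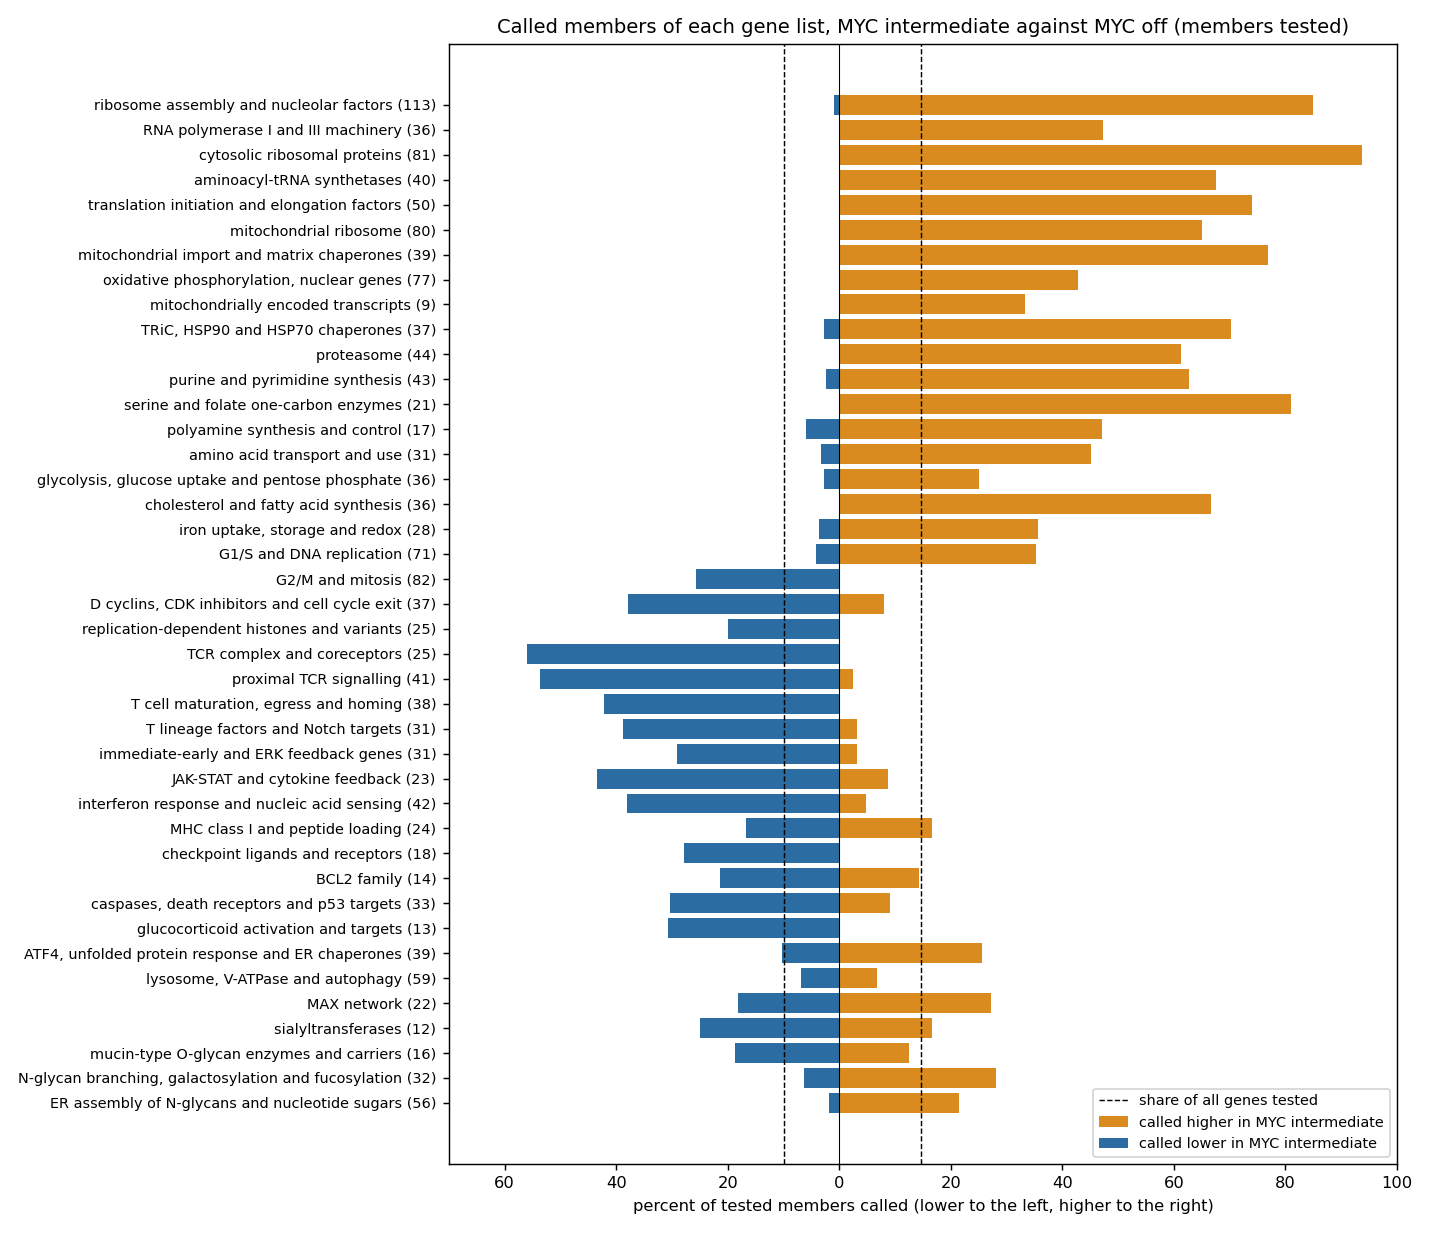
Share of the tested members of 41 gene lists that were called higher (right) or lower (left) in MYC intermediate than in MYC off, in percent, with the number tested after each name and dashed lines at the shares of all genes tested (14.7% and 9.95%). Growth and biosynthesis lists extend to the right, up to 93.8% of ribosomal protein genes, and T cell and signalling lists to the left, up to 56% of the genes of the T cell receptor complex and coreceptors.

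The genes that rose on removal of the residual MYC rose by less. By the same conditions the largest rise was in Cdh24, a type II cadherin, from 11.7, 14.0 and 14.7 CPM in MYC intermediate to 28.3, 40.2 and 37.0 CPM in MYC off, a log2 fold change of −1.33 ± 0.14 (adjusted p = 2.3e-06). Myo1f, an unconventional myosin of leukocytes, rose from 15.8, 18.4 and 17.0 CPM to 43.2, 44.3 and 44.3 CPM (−1.32 ± 0.083, adjusted p = 9.0e-09). The purine receptor P2rx7, an ATP-gated channel, rose from 16.1, 16.0 and 13.8 CPM to 33.6, 32.9 and 36.3 CPM (−1.12 ± 0.10). Of these 3 genes Cdh24 had the widest spread among its MYC off libraries, with replicate 1 the lowest.

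Also among the 12 largest rises were Vamp1, a vesicle SNARE (−1.28 ± 0.19), Kcnh5, a potassium channel (−1.24 ± 0.14), Trbj2-7, a joining segment of the T cell receptor beta locus (−1.22 ± 0.23), Spsb1, a substrate adaptor of ubiquitin ligases (−1.21 ± 0.12), and Spo11, the meiotic break enzyme (−1.21 ± 0.17). The list closed with Nlrc3, a NOD-like receptor (−1.17 ± 0.13), Pglyrp2, an amidase of bacterial peptidoglycan (−1.16 ± 0.10), the corepressor Tle2 (−1.15 ± 0.22) and Uba7, the activating enzyme of ISG15 (−1.12 ± 0.14). For Vamp1 the MYC off libraries held 46.2, 84.5 and 76.5 CPM, and for Tle2 9.22, 18.3 and 17.1 CPM. Replicate 1 was well below the other two in both genes, as it also was for Trbj2-7 (7.18, 15.7 and 15.2 CPM).

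Many genes of T cell identity and receptor signalling rose. Of 25 genes for the receptor complex and coreceptors 14 were lower in MYC intermediate and none higher (median log2 fold change −0.42), against 9.95% of all genes. Cd5, a restraint on receptor signalling, rose from 47.0, 49.7 and 50.7 CPM to 107, 103 and 109.8 CPM (−1.07 ± 0.075, adjusted p = 3.0e-08). Its relative Cd6 rose from 293, 315 and 312 CPM to 643, 576 and 616 CPM (−0.95 ± 0.072). Neither gene overlapped between the groups. The adhesion receptor Cd2 (−0.80 ± 0.11) and the tetraspanin Cd37 (−0.75 ± 0.072) also rose.

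Of 41 genes of proximal receptor signalling, 22 were lower and 1 higher (median −0.25). Dgka, which consumes diacylglycerol and so limits signalling, rose from 144, 153 and 158 CPM to 257, 299 and 295 CPM (−0.86 ± 0.066), and Tespa1, an adaptor of thymocyte receptor signalling, from 78.7, 91.2 and 87.1 CPM to 148, 164 and 159 CPM (−0.83 ± 0.065). Both were separate between the groups. Of 38 genes of maturation, egress and homing 16 were lower and none higher (median −0.48), including the costimulator Icos (−0.87 ± 0.14), the nuclear factor Tox (−0.82 ± 0.075), Gimap1 (−0.82 ± 0.10) and the integrin subunit Itgal (−0.77 ± 0.061). Of 31 T lineage factors and Notch targets 12 were lower and 1 higher (median −0.22). The recombinase gene Rag2, needed to assemble the receptor genes, rose from 27.9, 26.1 and 31.0 CPM to 44.1, 45.9 and 45.2 CPM (−0.62 ± 0.077).

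Markers of other lineages moved beside these genes. All 3 tested genes of 15 natural killer and cytotoxic markers rose, Prf1 (−0.91 ± 0.13), Gzma (−0.80 ± 0.10) and Tbx21 (−0.56 ± 0.14), and the summed level of the list was 30.5 to 35.4 CPM in MYC intermediate and 55.5 to 65.9 CPM in MYC off, with Ncr1 and Klrd1 at 0 counts. Tbx21 lost its call without any 1 of MYC intermediate replicates 2 and 3 and MYC off replicates 2 and 3 (adjusted p from 0.011 to 0.027), with DESeq2 (0.012) and with thinned counts (0.028). Of 19 myeloid markers 4 were tested and 1 rose, Itgam (−0.69 ± 0.11), with sums of 33.2 to 36.4 and 41.8 to 45.3 CPM and with Lyz2 and Adgre1 at 0 counts. Of 16 stromal and endothelial markers 2 were tested and 1 rose, Pecam1 (−0.33 ± 0.058), with sums of 158 to 178 and 209 to 228 CPM and with Pdgfra and Cdh5 at 0 counts. Of 16 B cell markers 2 were tested and 1 fell, Ighm (0.44 ± 0.083), with sums of 42.5 to 47.0 and 34.0 to 35.6 CPM. Neither of the 2 tested erythroid and platelet markers was called, and their list summed to 4.25 to 5.33 and 5.44 to 6.01 CPM. The part of these markers in the changes of the T cell lists was not tested.

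The feedback and cytokine genes that passed the test mostly rose as well. Of 31 immediate-early and ERK feedback genes 9 were lower in MYC intermediate and 1 higher (median −0.28). Etv5, an ETS factor downstream of ERK, rose from 49.8, 50.3 and 44.7 CPM to 98.1, 94.3 and 97.2 CPM (−0.96 ± 0.083), and the ERK phosphatase Dusp6 from 5.87, 5.52 and 6.41 CPM to 13.2, 11.5 and 11.7 CPM (−0.99 ± 0.12). Neither overlapped between the groups. Of 23 JAK-STAT and cytokine feedback genes 10 were lower and 2 higher (median −0.20), among the lower ones the receptor Il21r (−0.75 ± 0.081), with the interferon-gamma receptor chain Ifngr1 (−0.60 ± 0.050) and the kinase Jak3 (−0.55 ± 0.077). Of 42 interferon response genes 16 were lower and 2 higher (median −0.37): the guanylate-binding Gbp4 (−0.90 ± 0.087), the nucleic acid sensor Zbp1 (−0.85 ± 0.072) and Irf7 (−0.78 ± 0.14) rose, and the tetherin gene Bst2 fell (0.98 ± 0.14).

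Of 24 genes for MHC class I and peptide loading, 4 were higher and 4 lower (16.7% each, against 14.7% and 9.95% of all genes). With upper-quartile scaling 9 were lower, while the lower calls over all genes went from 1403 to 2026. The higher members included the chaperones Canx (0.68 ± 0.076) and Calr (0.54 ± 0.053), and the lower ones the loading protein Tapbp (−0.58 ± 0.060) and Cd1d1 (−0.63 ± 0.086). Of 18 checkpoint ligands and receptors 5 (27.8%) were lower and none higher (median −0.34). Cd47, which signals to macrophages not to engulf a cell, rose from 138, 113 and 123 CPM to 174, 166 and 162 CPM (−0.38 ± 0.073), and Cd274, which encodes PD-L1, from 11.3, 11.8 and 11.3 CPM to 17.1, 18.2 and 14.3 CPM (−0.48 ± 0.11, adjusted p = 0.0029). Neither overlapped, and the adjusted p of Cd274 was 0.014 without MYC off replicate 1 and 0.023 without MYC off replicate 2. Of 13 genes of glucocorticoid activation and response 4 (30.8%) were lower and none higher. Hsd11b1, which regenerates active glucocorticoid, rose from 41.6, 38.2 and 40.0 CPM to 92.0, 82.3 and 84.9 CPM (−1.07 ± 0.081), and the receptor gene Nr3c1 from 189, 185 and 183 CPM to 223, 238 and 228 CPM (−0.26 ± 0.052), with an adjusted p of 0.012 for Nr3c1 without MYC off replicate 2.

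Among 14 tested BCL2 family genes, 2 (14.3%) were higher, a share like the 14.7% of all genes, and 3 (21.4%, against 9.95%) lower. Bcl2, which blocks apoptosis, rose from 2.08, 2.44 and 1.53 CPM to 4.64, 6.01 and 4.94 CPM (−1.31 ± 0.19, adjusted p = 6.2e-05), and Mcl1, another inhibitor, from 161, 153 and 159 CPM to 199.5, 207 and 195 CPM (−0.30 ± 0.053). The death-promoting Bid (0.53 ± 0.064) and Bax (0.42 ± 0.069) fell. The groups did not overlap in these 4 genes, as in 21.0% of all genes in the one direction and 26.6% in the other. Of 33 caspases, death receptors and p53 targets 10 were lower (30.3%, against 9.95%) and 3 higher (9.09%, below the 14.7% of all genes). The receptors Fas (−0.59 ± 0.072) and Tnfrsf1a (−0.64 ± 0.099) were among the rises and the nuclease Aen (1.11 ± 0.085) and Tigar (0.99 ± 0.17) among the falls.

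Called genes of DNA replication and of mitosis mostly moved apart, and most members of both lists were not called. Of 71 genes for G1/S and DNA replication, 25 (35.2%, against 14.7% of all genes) were higher in MYC intermediate. Another 3 (4.23%, against 9.95%) were lower and 43 not called. The median log2 fold change of the list was 0.16 in this step and −0.11 in the first. Ung, the uracil DNA glycosylase, fell from 71.5, 64.5 and 61.7 CPM to 36.8, 36.9 and 36.3 CPM (0.89 ± 0.071), and the helicase subunit Mcm6 from 2154, 2233 and 2405 CPM to 1714, 1733 and 1708 CPM (0.44 ± 0.052). Both were separate between the groups. E2f7, a repressor of E2F targets, rose (−0.46 ± 0.078).

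Of 82 genes for G2/M and mitosis, 21 (25.6%, against 9.95% of all genes) were lower, none higher and 61 not called. The median was −0.14, and −0.43 in the first step. With upper-quartile scaling 37 were lower, and 13 without MYC off replicate 2. The difference between the steps was called for 3 of the 82, against 1.89% of all genes. Cenpf, a kinetochore protein, rose from 321, 309 and 279 CPM to 398, 422 and 432 CPM (−0.41 ± 0.065), and the condensin subunit Ncapd2 from 496, 538 and 529 CPM to 679.6, 701 and 744 CPM (−0.40 ± 0.054). These rises were small, and their lack of overlap largely follows from picking called members with the largest changes. Among 37 genes for D cyclins, CDK inhibitors and cycle exit, 14 were lower (37.8%, against 9.95% of all genes) and 3 higher (8.11%, below the 14.7% of all genes). Cdk6, the partner kinase of D cyclins, fell from 37.9, 37.4 and 29.8 CPM to 9.22, 10.5 and 10.5 CPM (1.85 ± 0.099), whereas Txnip, a brake on glucose uptake that is high in resting cells, rose from 27.9, 24.8 and 26.3 CPM to 53.3, 54.1 and 52.9 CPM (−0.98 ± 0.076). Of 25 histone genes 5 (20%, against 9.95% of all genes) were lower and none higher, with the linker histone H1f0 at −0.52 ± 0.052. Only 2 histone genes were called lower without MYC intermediate replicate 2 or 3 or MYC off replicate 1 or 3. Without MYC off replicate 2 there were 3.

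In the network around MAX, the partner of MYC, 6 of 22 tested genes (27.3%, against 14.7% of all genes) were higher. Another 4 (18.2%, against 9.95%) were lower. The 6 include hMYC, whose change was set by the design. The acetyltransferase Kat2a, which MYC recruits, fell from 72.6, 81.0 and 81.5 CPM to 30.0, 30.5 and 34.1 CPM (1.36 ± 0.067), and the helicases Ruvbl1 (0.74 ± 0.059) and Ruvbl2 (0.70 ± 0.070) fell. The sialyltransferase St6galnac4, which adds sialic acid to O-glycans, stood at 56.4, 67.7 and 62.4 CPM and then 21.4, 19.5 and 20.5 CPM (1.64 ± 0.086), without overlap, and Spn, the mucin CD43 that carries such glycans, at 72.3, 69.7 and 71.1 CPM and then 92.8, 91.0 and 91.6 CPM (−0.33 ± 0.058). Among 12 tested sialyltransferases 2 (16.7%, against 14.7% of all genes) were higher and 3 (25%, against 9.95%) lower. Of 16 O-glycan genes 2 (12.5%) were higher and 3 (18.75%) lower, and of 32 for N-glycan branching 9 (28.1%) and 2 (6.25%). The medians of these 2 lists changed sign with upper-quartile scaling. Of 56 genes for the ER assembly of N-glycans 12 (21.4%) were higher and 1 (1.79%) lower. Of 59 lysosome and autophagy genes 4 were higher and 4 lower (6.78% each, below both shares of all genes).

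Both steps of MYC removal share the 3 MYC intermediate libraries, so their sizes were compared within 1 model, as the second step minus the first. This difference passed an adjusted p under 0.01 for 266 genes (1.89%), 240 with a positive sign (1.70%) and 26 with a negative one (0.184%). The classes, set on the log2 scale, were unequal. Of genes whose estimates had the same sign in both steps, 161 rose more in the first and 61 fell more in the second. A further 8 fell more in the first and 0 rose more in the second. The second step itself was called for 131 of the 161, all 61 and 5 of the 8. By their estimates, another 18 were highest and 18 lowest in MYC intermediate, but both steps were called for only 4 and 6 of them. Leaving out 1 library gave between 113 and 322 positive and between 6 and 64 negative genes, the lowest positive count without MYC intermediate replicate 2 and the lowest negative count without MYC intermediate replicate 1.

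**Figure D4:**
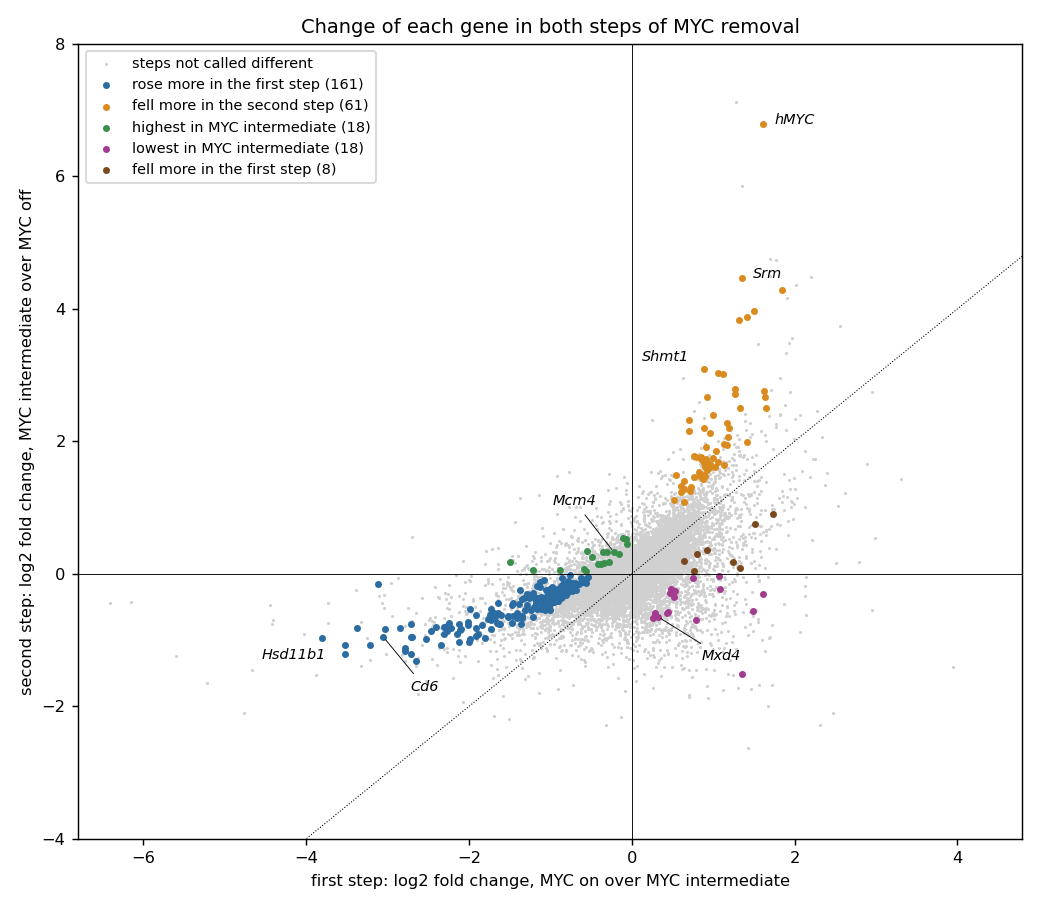
Log2 fold change of each gene tested in the first step (MYC on over MYC intermediate, horizontal) and in the second (MYC intermediate over MYC off, vertical), with the 266 genes whose steps were called different coloured by class and a dotted line where both changes are equal. The 61 genes that fell more in the second step, hMYC included, lie above that line at the upper right, and the 161 that rose more in the first step lie above it at the lower left.

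The 60 mouse genes that fell more in the second step held 20 of the ribosome assembly list, which makes up 113 of the 14098 genes tested. All 3 MYC intermediate libraries were above all MYC off libraries in each, against 21.0% of all genes. The 60 were chosen by a called, larger fall, so this separation follows from the choice. hMYC itself differed between the steps by 5.18 ± 0.13 on the log2 scale. The difference was 3.11 ± 0.11 for Srm, which had 487 CPM in MYC on, 2.52 ± 0.16 for Gsto1, 2.45 ± 0.13 for Bcat1 and 2.21 ± 0.085 for Shmt1. For Pus7 it was 1.97 ± 0.12, for Lap3 1.90 ± 0.15, for Rrp12 1.61 ± 0.12 and for Polr1b 1.53 ± 0.11. These 8 had the largest differences among genes with a mean of at least 10 CPM in MYC intermediate or MYC off, predicted genes left out, each with an adjusted p of 2.3e-06 or less. On the linear scale the picture was another: for 9 of the 60 genes the fall in CPM was also larger in the second step, among them Shmt1 (264 and then 270.3 CPM), Rrp12 (68.7 and then 84.6 CPM) and Eif5a (855.6 and then 1008.7 CPM), and for the others the first step removed more CPM.

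The E-box CACGTG was looked for in the 250 bases before the start of each gene, where the RefSeq promoter table (GRCm38.p6) held the gene. The motif reads the same on both strands and was counted once. It was present in 8.49% of 9386 tested genes with a promoter in the table, and in 6.44% of all 20428 promoters. The share was 11.75% (180 of 1532) for genes higher in MYC intermediate, 7.16% (75 of 1047) for genes lower in it and 7.96% for genes not called. Among the higher genes it was 13.26% (37 of 279) for those over 2-fold and 8% (4 of 50) for those over 4-fold. For genes lower by more than 2-fold it was 8.33% (5 of 60). Of the 49 genes that fell more in the second step and had a promoter, 6 (12.24%) held it. These shares are a description, and a match is not evidence of binding. The 6 genes were picked by this class and the motif, after their values were seen. Their windows are shown because they belong to the genes with the larger fall in the second step, with up to 25 bases on either side and the motif in capitals, each 5′ to 3′ on the strand of the gene.
Cluh (chr11:74649460-74649503, plus strand, GRCm38.p6): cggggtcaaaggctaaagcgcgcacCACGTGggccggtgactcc
Cdk6 (chr5:3343648-3343703, plus strand, GRCm38.p6): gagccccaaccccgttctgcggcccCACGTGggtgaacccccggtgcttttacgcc
Nop2 (chr6:125131798-125131853, plus strand, GRCm38.p6): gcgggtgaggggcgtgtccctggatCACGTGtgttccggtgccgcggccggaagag
Apex1 (chr14:50924900-50924948, plus strand, GRCm38.p6): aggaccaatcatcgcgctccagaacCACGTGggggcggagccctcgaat
Ppa1 (chr10:61648456-61648511, plus strand, GRCm38.p6): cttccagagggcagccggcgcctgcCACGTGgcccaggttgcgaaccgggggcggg
Atic (chr1:71557124-71557155, plus strand, GRCm38.p6): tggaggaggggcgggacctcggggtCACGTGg

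These genes are Cluh, which binds messenger RNAs of mitochondrial proteins, Cdk6 (above), Nop2, a methyltransferase of ribosomal RNA, Apex1, the endonuclease of base excision repair, Ppa1, a pyrophosphatase, and Atic (above). Their log2 fold changes in the second step were 2.07, 1.85, 1.75, 1.73, 1.61 and 1.43, and in the first step 1.18, 1.03, 1.00, 0.85, 0.90 and 0.87. Of the 24 genes named above for the largest falls and rises, none of the 20 found in the table held the motif in this window.

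The genes that rose more in the first step, on the log2 scale, included T cell genes. Tespa1 had 10.5 CPM in MYC on, and its steps differed by 2.20 ± 0.12 (adjusted p = 2.6e-08). The difference was 2.10 ± 0.12 for Cd6, 2.15 ± 0.14 for Cd5, 2.03 ± 0.14 for Tox and 2.46 ± 0.15 for Hsd11b1. A positive difference between the steps was called for 9 of the 25 receptor complex genes, 6 of the 41 signalling genes, 6 of the 38 maturation genes and 7 of the 31 lineage factors. Over all genes tested, a positive difference was called for 1.70%. In CPM the order could turn: Cd6 had means of 37.1, 307 and 612 CPM in MYC on, MYC intermediate and MYC off, and so gained slightly more CPM in the second step. Among genes that rose in both steps, none was called with the larger rise in the second. Genes with a larger rise there had their lowest level in MYC intermediate.

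In 4 genes the level peaked in MYC intermediate, with every one of the 3 contrasts called, and 3 of them act in DNA replication. Mcm4, a subunit of the replicative helicase, measured 683, 682 and 711 CPM in MYC intermediate against 599 CPM (mean of MYC on) and 569.7 CPM (mean of MYC off). Rfc4, of the clamp loader, measured 265, 261 and 289.8 CPM against 214 and 222 CPM, and Pole2, a subunit of polymerase epsilon, 32.2, 31.9 and 34.1 CPM against 26.7 and 26.8 CPM. Each was higher in all 3 MYC intermediate libraries than in any MYC off library, with log2 fold changes of 0.33 ± 0.047, 0.34 ± 0.071 and 0.33 ± 0.074. The protease gene Mmp12 was the fourth (0.34 ± 0.088), and lost its call in 10 of 20 alternatives. Without MYC off replicate 3 the adjusted p of the second step was 0.013 for Rfc4 and for Pole2, and without MYC intermediate replicate 2 that of the step difference was 0.016 for Rfc4 and 0.034 for Pole2. The step difference of Pole2 was also lost without any 1 of the MYC on or MYC intermediate libraries or of MYC off replicates 2 and 3, with thinned counts (0.017) and with RLE (0.012), upper-quartile (0.023) and library-size scaling (0.020), and its second step with upper-quartile scaling (0.011). Of the 71 replication genes 9 had a positive difference between the steps, against 1.70% of all genes.

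The opposite pattern, a trough in MYC intermediate with all contrasts called, was found in 6 genes. Mxd4 encodes a MAX partner that represses MYC targets. It stood at 34.6, 43.9 and 42.8 CPM in MYC intermediate and 59.7, 65.6 and 70.5 CPM in MYC off, with a mean of 50.8 CPM in MYC on. MYC intermediate was thus the lowest group, and its difference between the steps was −0.97 ± 0.16 (adjusted p = 0.0023). The same search of the RefSeq promoters of Ppcdc, Tagap1, Rora and Podxl2, picked like Mxd4 for a larger rise in the second step, found no motif. The upstream window of Mxd4 held it, at chr5:34187899-34187954 on the minus strand (GRCm38.p6), and is shown because the level of this MAX partner was lowest in MYC intermediate. This 1 match does not mark the pattern as a whole.
Mxd4: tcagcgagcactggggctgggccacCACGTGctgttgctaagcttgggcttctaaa

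The others were Podxl2, a sialomucin related to CD34 (−0.59 ± 0.077), Ppcdc, a coenzyme A synthesis enzyme (−0.60 ± 0.10), Tagap1, a GTPase-activating protein of T cells (−0.58 ± 0.098) and the noncoding RNA Firre (−0.70 ± 0.14). The sixth, Rgs11, a regulator of G-protein signalling, is named only because the count is small, after its values were seen. Rora, a nuclear receptor, was not called in the first step (adjusted p = 0.02) and rose in the second from 11.6, 11.9 and 12.1 CPM to 17.8, 20.5 and 17.6 CPM (−0.60 ± 0.091). The call on the step difference was lost when 1 library was left out for Ppcdc (adjusted p up to 0.020, without MYC intermediate replicate 2), Tagap1 (0.012, without MYC intermediate replicate 1 or 2), Firre (0.019, without MYC intermediate replicate 2, and 0.012 for its second step without MYC off replicate 2) and Rora (0.027, without MYC intermediate replicate 2).

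Set side by side, the lists differed in how their change was divided. The median log2 fold change of the ribosome assembly list was 0.61 in the first step and 0.81 in the second, and that of the ribosomal proteins 0.59 and 0.86. The T cell lists had the larger part first, with −0.79 and then −0.42 for the receptor complex and −1.09 and then −0.48 for maturation genes. Checkpoint genes had −1.03 and then −0.34, with the difference called for 3 of the 18, against 1.89% of all genes. The difference between the steps was called for 21 of the 113 ribosome assembly genes, of which 20 fell more in the second step and 1 rose more in the first, and for 0 of the 81 ribosomal protein genes, so an unequal change of these was not shown.

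**Figure D5:**
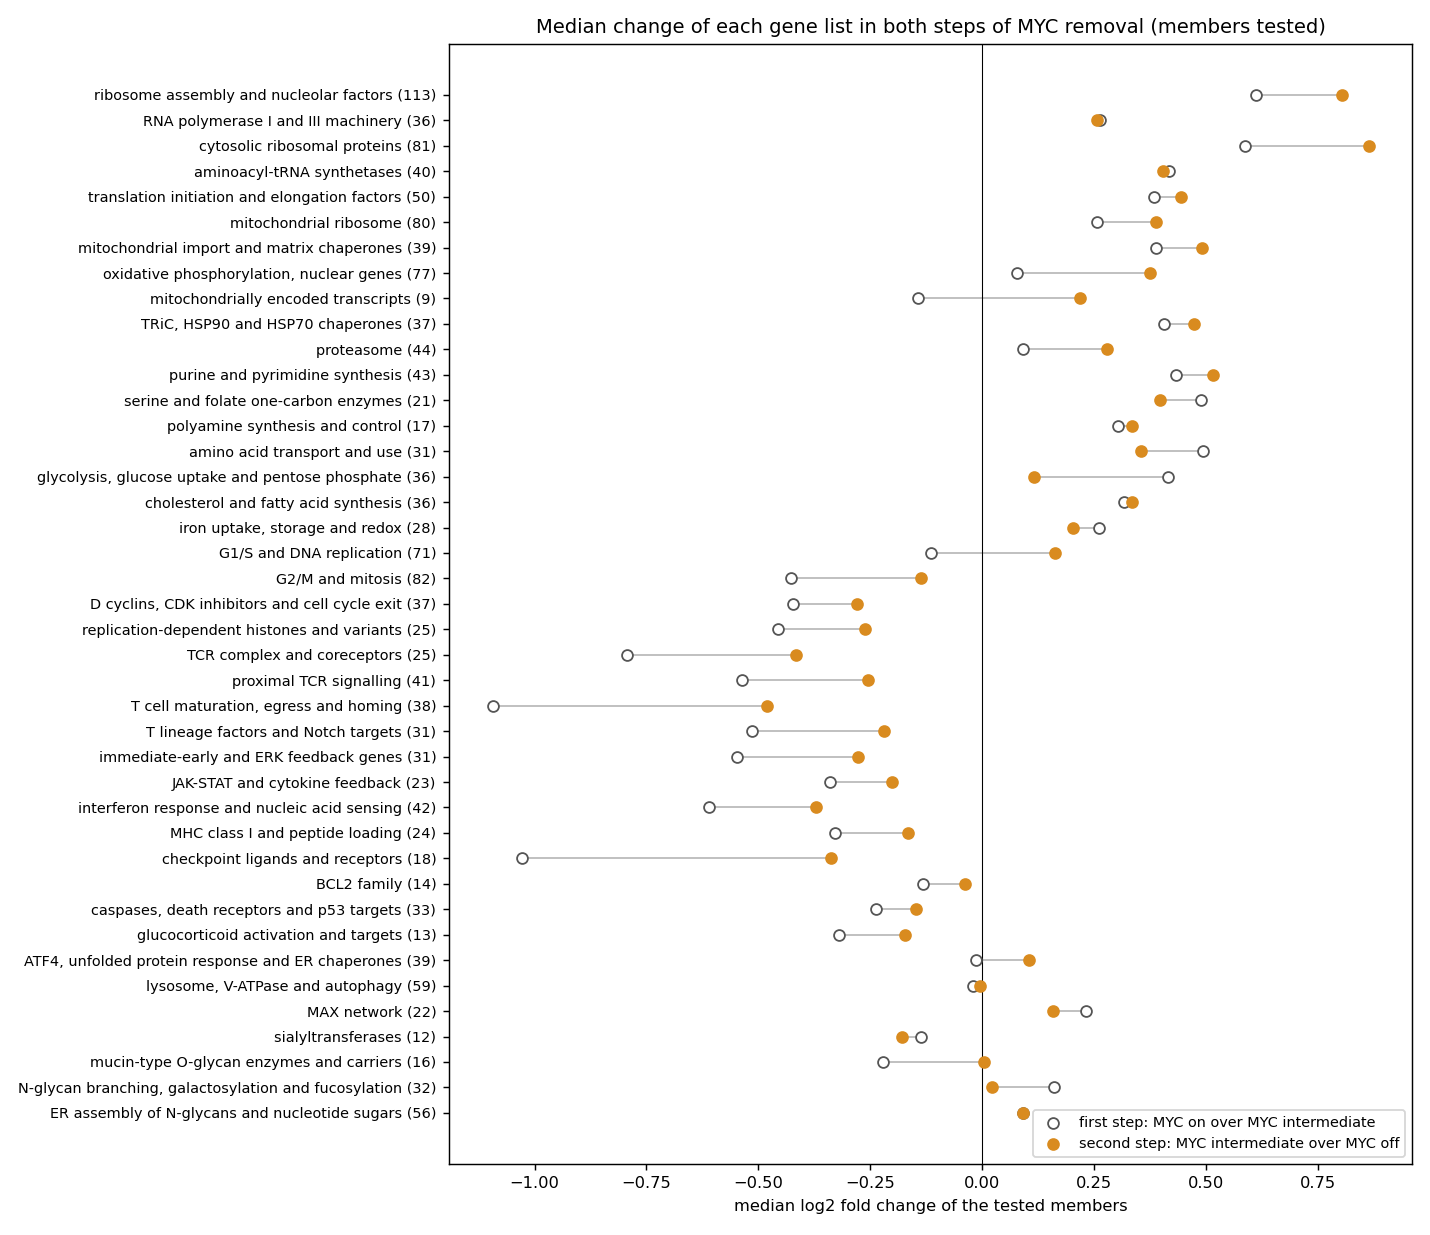
Median log2 fold change of the tested members of 41 gene lists in the first step (MYC on over MYC intermediate, open circles) and in the second (MYC intermediate over MYC off, filled circles), joined by a line, with the number tested after each name. Growth lists lie to the right in both steps, T cell lists to the left with the larger change in the first step, and the G1/S and replication list changes sign from −0.11 to 0.16, as do 3 others near 0 or with few members (mitochondrially encoded transcripts, the unfolded protein response and mucin-type O-glycans).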

How the data were processed

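RNA from 3 libraries per group was made into cDNA with an oligo(dT) kit (SMART-Seq v4) and tagged with Nextera XT, which does not mark strand, so overlapping genes on opposite strands cannot be told apart. The authors trimmed reads with cutadapt 1.16, aligned them with STAR 2.5.4b to mm10 and deposited featureCounts counts per gene, per the submitters' processing notes. The annotation release and the strand setting are not given in the sources used here. The deposited counts per kilobase (a score), FPKM, TPM and a rank fraction, also made by the authors, were not analysed. Symbols were matched for 53274 of 53380 rows. Counts were tested in R 4.3.3 with edgeR 4.0.16 (quasi-likelihood F test, two-sided, TMM, default filterByExpr, all 9 libraries in 1 fit with group as the only term), and p-values were adjusted by Benjamini-Hochberg over the 14098 genes tested, with calls at an adjusted p under 0.01. Where both groups' values follow a gene's name, they are CPM in replicates 1, 2 and 3.

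Named genes were hMYC, Myc, Spn and St6galnac4, the 12 largest changes per direction (mean CPM of at least 10 in 1 group, no overlap, no predicted genes, pseudogenes or antisense genes), up to 4 called members per list (mean CPM of at least 5) with defining markers, up to 8 largest step differences per direction, and up to 5 peaks and troughs. A few genes that this rule takes in are not reported here. The 46 gene lists, written from textbook knowledge, and the members were chosen with earlier results of these data known. The 6 libraries compared hold 26933496 to 39678799 counts, and 3 counts, the limit a count of 0 allows, correspond to 0.0756 to 0.111 CPM, for counting error only. On simulated counts for this comparison (14098 genes) the fit recovered 81.6% of 2-fold changes, with 1.65% of calls false. The simulation gave all genes the same spread, drew libraries independently and changed few genes (98 by 2-fold and 102 by 4-fold). These rates need not hold for the real counts. Alternatives were other scaling factors, DESeq2 1.42.0, other filters, thinned counts, a replicate block, only 6 libraries, a threshold of 0.05 and leaving out each library.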

Additional observations from a re-analysis of the deposited data

How the results depend on the processing

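Of the 191 named genes under 20 alternatives, 3759 values kept direction and call, 61 (17 genes) kept direction and lost the call, and 0 reversed. Of the step differences of 18 named genes, 288 values were kept, 36 lost the call and 0 reversed. Of 1840 list counts 149 moved by over 1.5 times. hMYC lay between 6.69 and 6.89 on the log2 scale when 1 library was left out. With upper-quartile scaling 158 genes rose by more than 2-fold, 156 step differences were positive and 102 genes rose more in the first step. With DESeq2 the step differences were 389 positive and 99 negative, and 255 genes rose more first. With no count filter, which tests more genes, they were 695 and 155, with 162 genes falling more second and 378 rising more first. At an adjusted p under 0.05, 2379 genes rose, 200 of them by more than 2-fold, step differences were 584 positive and 138 negative, 131 genes fell more second and 369 rose more first. Apart from this looser threshold and the missing filter, the cause was not tested.

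Leaving out 1 library gave 1565 to 2103 falls (355 to 442 over 2-fold) and 852 to 1330 rises, the lowest without MYC off replicate 2, with 63 (without MYC off replicate 2) to 177 (without MYC off replicate 1) over 2-fold. Step differences were 113 to 322 positive and 6 to 64 negative, 35 to 74 genes fell more second and 72 to 202 rose more first, the lowest 35 and 72 without MYC intermediate replicate 2. The labels give no meaning to the replicate numbers. Deviations of MYC intermediate and MYC off correlated at 0.37, 0.03 and 0.08 for numbers 1 to 3 over 9946 genes, and replicates 2 and 3 did not correlate best with their own number. MYC on and MYC off correlated at 0.38, 0.25 and 0.22, each best with its own number, and MYC on and MYC intermediate at 0.13, −0.18 and −0.16, so the numbers were not taken as pairs. A replicate block gave 2266 falls, 1593 rises and 357 positive and 73 negative step differences. Depth limits genes near the 3-count limit.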
